A study of Mus musculus with 18 samples.

Results

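The response of wild-type (WT) mouse Th17 cells to acetate was measured by sequencing messenger RNA from 6 of the 18 libraries of the series, 3 from cells cultured with acetate and 3 from untreated cells, chosen by genotype and treatment labels. Naive CD4+ T cells of the C57BL/6 background were activated through CD3 and CD28 with the cytokines that drive Th17 differentiation, acetate was present or absent during the 24 hours after the first 48 hours, and a final 5 hours of PMA and ionomycin, with brefeldin A and monensin, followed in both groups. PMA and ionomycin bypass the T cell receptor and switch on cytokine genes, and the last pair of agents keeps proteins inside the cell, so every level below is that of restimulated cells. The labels disagree on the dose, which is 20 mM in the sample protocols and 10 mM in the series text. The other 12 libraries are Th17 cells, 3 with and 3 without acetate each, of GLUT3KO (Slc2a3-fl/fl Cd4-cre) and ACLYKO (Acly-fl/fl Cd4-cre) mice, in which Cre driven by Cd4 deletes the floxed gene in T cells, and serve below only to set the spread in the fit and to compare the response. Whether replicates are different animals is not stated, and the p-values therefore cover only variation among the libraries at hand, part of which may be technical.

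Th17 cells are helper T cells that make the interleukin-17 cytokines and defend skin and mucosal surfaces, where they can also drive inflammation. Acetate, a short-chain fatty acid made by gut bacteria and by tissues, enters cells through monocarboxylate transporters and is joined to coenzyme A by the acetyl-CoA synthetases. The acetyl-CoA made in this way feeds the synthesis of fatty acids and sterols and the acetylation of histones, which otherwise draw mostly on citrate split by ATP citrate lyase, the product of Acly.

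Levels are TPM, a relative transcript abundance, which are corrected for transcript length and have the same total in each library, and the 6 libraries hold 19.3 to 30.1 M reads assigned to genes. Log2 changes are fitted values on the log2(TPM + 1) scale, acetate over untreated, with their standard error, and understate the change of genes of low level. Of the genes in the deposited table, 14229 reached 1 TPM in 3 or more of the 18 libraries and were tested, 11037 of them protein-coding. A gene was called when its adjusted p from limma, with Benjamini-Hochberg adjustment over all 14229, was under 0.05.

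The Th17 label was checked against its markers. Ccr6, the chemokine receptor gene typical of Th17 cells, had 93.5, 89.5 and 85.9 TPM in the acetate libraries and 41.2, 56.8 and 45.8 TPM in the untreated ones, and Il17a had at least 599 TPM in each of the 6. Foxp3, the defining factor of regulatory T cells, had 0.620 to 0.869 TPM. Untreated replicate 1 stood apart from the other libraries. On the first principal component of the 6, which held 62.8% of their variance, untreated replicate 1 lay at 63.05, the other untreated libraries at 6.46 and 0.84, and the acetate libraries at -25.7 to -21.6. It also had the fewest genes above 0 TPM, 18023 against 18864 to 19951 in the other 5. It also had the fewest reads of the 6, 19.3 M against 21.6 to 30.1 M in the others. Calls lost without it are named below.

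With acetate, 601 genes were higher, which is 4.22% of those tested, and 324 were lower, which is 2.28%. Together these 925 genes were 6.50% of those tested. The libraries of the 2 groups did not overlap for any of the 925 genes, nor for 4938 genes that were not called, so that 41.2% of all tested genes had groups without overlap. Changes of at least 1 on the log2 scale were found for 231 genes among the higher and for 42 among the lower, so the stronger changes were mostly rises. Protein-coding genes made up 541 of the higher and 302 of the lower genes, and long noncoding RNA genes 42 and 11. The median change over all tested genes was -0.02. Without untreated replicate 1, 508 genes were called, 395 higher and 113 lower, and 484 of the 925 were among them. Leaving out 1 of the other libraries gave 500, 451 and 485 genes for acetate replicates 1, 2 and 3, and 607 and 641 for untreated replicates 2 and 3. In all, 376 of the 925 genes were called with each of the 6 libraries left out. A fit with genotype and replicate number as a block called 763 genes, 550 higher and 213 lower.

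**Figure D1:**
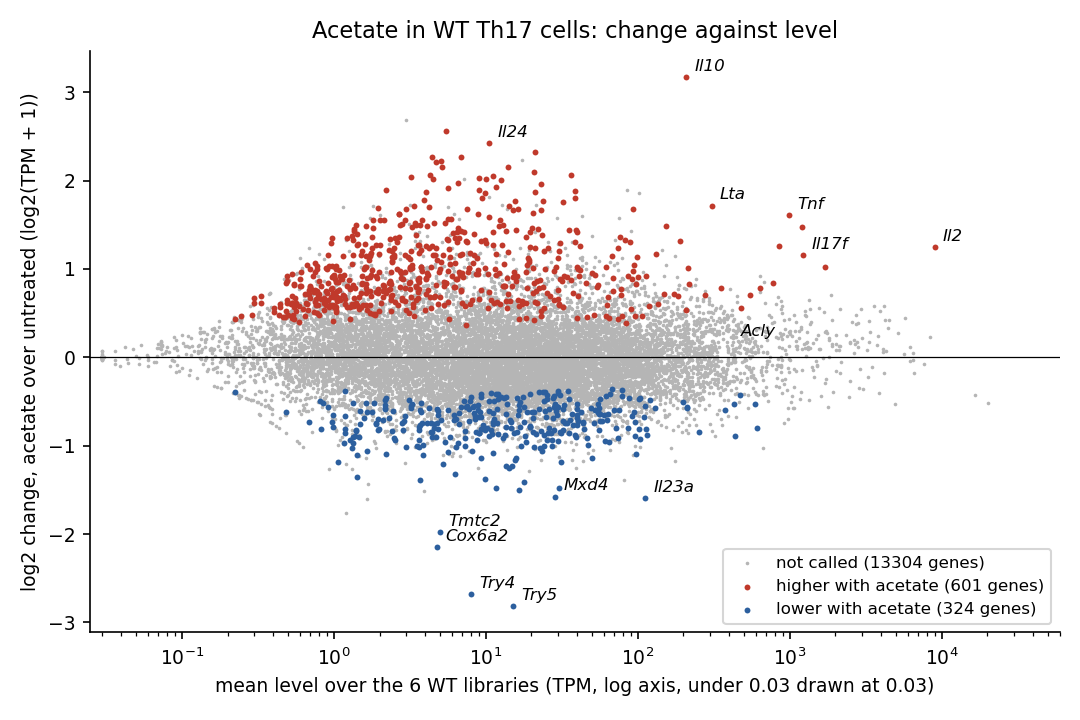
Log2 change with acetate (vertical axis, acetate over untreated, on log2(TPM + 1)) against the mean level of each of the 14229 tested genes over the 6 WT libraries (horizontal axis, TPM, logarithmic, values under 0.03 drawn at 0.03). The 601 genes called higher are red, the 324 called lower blue and the others grey, and the points past a change of 1 are mostly red, with Il10 at the top and the trypsinogen genes Try4 and Try5 at the bottom.

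Among called genes with a mean of at least 5 TPM in one group, the largest rise on the log2(TPM + 1) scale was that of Il10. It is the gene of the anti-inflammatory cytokine interleukin-10. Il10 (GeneID 16153, chromosome 1, 131019845 to 131024970, GRCm38.p6) had 442, 345 and 342 TPM with acetate, against 40.96, 42.1 and 39.03 TPM in untreated cells (log2 change 3.17 ± 0.25, limma adjusted p = 1.15e-05). The 3 untreated libraries lay close together and far below the acetate ones. Clec2i, which encodes a C-type lectin-related membrane protein seen by receptors of the NKR-P1 family, had 8.14, 12.1 and 10.03 TPM with acetate and 0.623, 1.17 and 0.827 TPM without (log2 change 2.56 ± 0.32, limma adjusted p = 0.000243). By the ratio of mean TPM Clec2i rose more than Il10, 11.5-fold against 9.26-fold. Il24, which encodes another cytokine of the interleukin-10 family, had 23.1, 19.2 and 12.9 TPM with acetate, against 1.68, 3.17 and 2.87 TPM in untreated cells (log2 change 2.43 ± 0.26, limma adjusted p = 7.52e-05). Il22, also a member of that family among the 12 largest rises, had 8.96, 5.95 and 10.25 TPM with acetate and 0.365, 1.06 and 1.82 TPM without (log2 change 2.21 ± 0.35, limma adjusted p = 0.00155). In all 3 of these cytokine genes and in Clec2i the groups were well separated, and each call held with any 1 of the 6 libraries left out.

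The rest of the 12 were not cytokine genes. Pdlim4, of an actin-associated PDZ and LIM domain protein, had 8.27, 8.57 and 6.77 TPM with acetate and 0.1995, 0.942 and 1.65 TPM without (log2 change 2.27 ± 0.28, limma adjusted p = 0.000229). Cd63, which encodes a tetraspanin of late endosomes and secretory granules, had 23.6, 21.3 and 25.8 TPM with acetate, against 4.23, 4.12 and 5.25 TPM without (log2 change 2.15 ± 0.20, limma adjusted p = 3.36e-05). Rhoc, of a small GTPase that acts on the actin cytoskeleton, stood at 34.3 ± 4.12 TPM with acetate and 7.35 ± 1.67 TPM without (SD, n = 3 each, log2 change 2.09 ± 0.23, limma adjusted p = 0.000108). The groups did not overlap in these 3 genes, although untreated Pdlim4 spread widely and was lowest in replicate 1. Rcn3, a calcium-binding protein of the endoplasmic reticulum, Syngr3, a vesicle membrane protein, Fbxo2, a ubiquitin ligase subunit that binds glycoproteins, and Ms4a4b, a membrane protein of T cells, rose by 2.27, 2.22, 2.06 and 2.07 on the log2 scale. The highest limma adjusted p among them was 0.000594, for Ms4a4b. Tff1, which encodes a trefoil factor of mucosal secretions, had 33.9, 34.7 and 36.7 TPM with acetate and 2.83, 8.78 and 8.92 TPM without (log2 change 2.33 ± 0.50, limma adjusted p = 0.0115), and its call was lost without untreated replicate 1 (adjusted p 0.0649).

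The largest falls on the log2(TPM + 1) scale were in the trypsinogen genes Try5 and Try4, which encode precursors of the digestive protease trypsin and are best known from the pancreas. Try5 (chromosome 6, 41311232 to 41314710) had 2.12, 3.88 and 3.07 TPM with acetate, against 24.3, 25.4 and 31.2 TPM in untreated cells (log2 change -2.81 ± 0.24, limma adjusted p = 1.89e-05). Try4 (chromosome 6, 41302272 to 41305533) had 1.18, 1.47 and 1.37 TPM with acetate and 21.1, 12.96 and 9.97 TPM without (log2 change -2.68 ± 0.20, limma adjusted p = 7.09e-06). Levels of both were low with acetate and moderate without it, with no overlap. Of 16 names in the trypsinogen list 6 were tested and 4 fell, beside 2.28% of all tested genes. Gm2663 and 1810009J06Rik, at 0.4501 ± 0.177 and 0.703 ± 0.156 TPM with acetate against 1.89 ± 0.736 and 2.59 ± 0.728 TPM without (SD, n = 3 each), were the other 2. Reads of this family of close paralogs could be split between its members by the counting, so their separate levels are uncertain. The call of 1810009J06Rik was lost without acetate replicate 2 (adjusted p 0.0528) or untreated replicate 3 (adjusted p 0.0514).

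Tmtc2, which encodes a mannosyltransferase of the endoplasmic reticulum, had 1.52, 1.37 and 1.28 TPM with acetate and 10.7, 7.64 and 7.31 TPM without (log2 change -1.98 ± 0.18, limma adjusted p = 3.36e-05). Cox6a2, the muscle form of a cytochrome c oxidase subunit, had 1.14, 1.53 and 0.726 TPM with acetate, against 8.72, 7.03 and 9.39 TPM without (log2 change -2.15 ± 0.41, limma adjusted p = 0.005703). Mxd4, of a partner of MAX that opposes MYC, had 15.9, 14.7 and 10.9 TPM with acetate and 53.2, 37.4 and 39.3 TPM without (log2 change -1.58 ± 0.19, limma adjusted p = 0.000224). For each of these 3 every acetate library was far below every untreated one. Ulk2, a kinase that starts autophagy, Galnt3, which begins the O-linked glycosylation of mucin type, Fgl2, of a secreted fibrinogen-like protein, and Vrk3, of a kinase family member, had log2 changes of -1.37, -1.41, -1.39 and -1.47, with limma adjusted p of at most 0.00416. Il23a, of the p19 subunit of interleukin-23, had 63.6, 42.4 and 41.1 TPM with acetate and 327, 104 and 93.5 TPM without (log2 change -1.59 ± 0.38, limma adjusted p = 0.0224). Here the untreated group itself spread widely, with replicate 1 far above the others. Without that library the Il23a change was -1.02, and its call was lost without acetate replicate 2 (adjusted p 0.0933) or acetate replicate 3 (adjusted p 0.0925) or untreated replicate 1 (adjusted p 0.0603). Aldh1l2, a mitochondrial enzyme of folate metabolism, and Hmgn2, a nucleosome-binding protein, had log2 changes of -1.51 and -1.48 and were also highest in untreated replicate 1, at 41.1 and 64.6 TPM against at most 18.8 and 35.7 TPM in the other 2. The call of Aldh1l2 was lost without acetate replicate 2 (adjusted p 0.062) or untreated replicate 1 (adjusted p 0.0504), and that of Hmgn2 without acetate replicate 2 (adjusted p 0.0585) or untreated replicate 1 (adjusted p 0.0563).

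**Figure D2:**
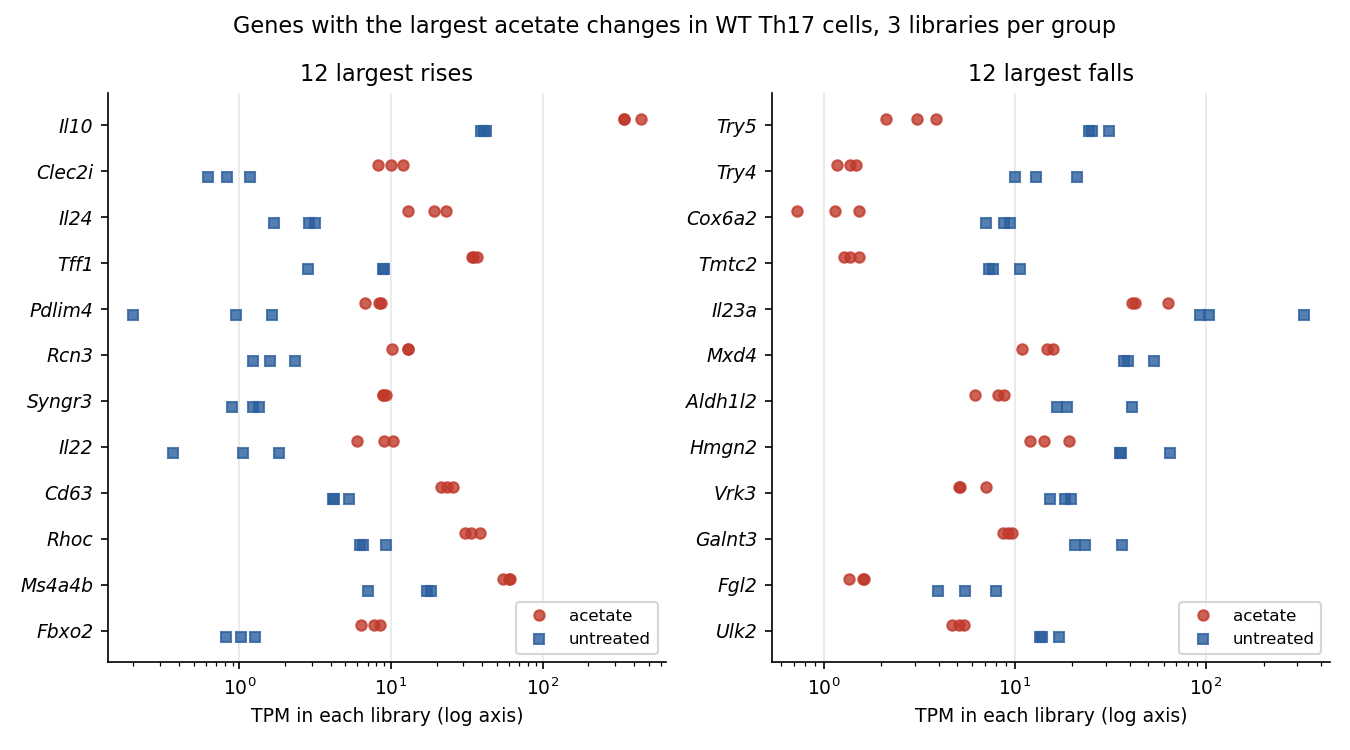
TPM in each library (horizontal axes, logarithmic) for the 12 genes with the largest rises (left) and the 12 with the largest falls (right) among called genes with a mean of at least 5 TPM in one group. Red circles are the 3 acetate libraries and blue squares the 3 untreated ones. The 2 groups are separate in each row by that choice, with a wide untreated spread for Il23a and Pdlim4.

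Among genes of secreted interleukins and growth factors, acetate was followed by higher levels across T helper classes. Of 25 tested members of that list 14 rose and 1 fell, with a median log2 change of 1.03, beside 4.22% and 2.28% called and a median of -0.02 over all tested genes. The same shares stand beside each list below, and a list with 1 call hardly stands out from them. Some genes stand in several lists, so the counts of the lists are not independent. The rises took in the Th17 cytokine genes Il17a, Il17f, Il21 and Il22, the Th1 gene Ifng, the Th2 genes Il4, Il5 and Il13, the Th9 gene Il9, and Il2, Il3, Il10, Il24 and Lif. Il17f had 1814, 1467 and 1822 TPM with acetate, against 867, 669.9 and 749.8 TPM in untreated cells (log2 change 1.16 ± 0.22, limma adjusted p = 0.00573). Il21, whose product helps B cells and sustains Th17 cells, had 2468, 2262 and 2091 TPM with acetate and 1705, 993 and 815 TPM without (log2 change 1.03 ± 0.21, limma adjusted p = 0.00862). Lif, of a cytokine that signals through gp130, had 156, 153 and 137 TPM with acetate and 74.9, 82.4 and 75.8 TPM without (log2 change 0.92 ± 0.19, limma adjusted p = 0.0102). As in all called genes, the groups did not overlap in these 3, although Il21 came close, its highest untreated library being replicate 1.

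Il2, the gene of the main T cell growth factor and among the 8 most abundant genes here, had 12627, 13570.0 and 11619 TPM with acetate, against 4017, 6356 and 5861 TPM in untreated cells (log2 change 1.24 ± 0.32, limma adjusted p = 0.0297). Its call was lost with any 1 library left out except untreated replicate 2 (adjusted p 0.0598 to 0.14) and with the replicate block (0.0958). Il17a had 2111, 1458 and 1807 TPM with acetate and 613, 599 and 703 TPM without (log2 change 1.48 ± 0.39, limma adjusted p = 0.0355), and its call was lost with any 1 library left out (adjusted p 0.0705 to 0.138). Il3, a growth factor of blood cell precursors, had 255, 208 and 212 TPM with acetate, against 55.8, 99.1 and 90.8 TPM in untreated cells (log2 change 1.48 ± 0.38, limma adjusted p = 0.0297). Its call was lost with any 1 library left out except untreated replicate 2 (adjusted p 0.0578 to 0.142). These 3 genes did not overlap between the groups either, which held for all 925 called genes and for 41.2% of all tested genes. Csf2, which encodes GM-CSF and lies next to Il3, had 507, 453 and 349 TPM with acetate and 424, 334 and 270.5 TPM without (log2 change 0.35 ± 0.28, limma adjusted p = 0.559), with overlapping groups. The gene that fell was Il16, whose product draws CD4+ lymphocytes, at 29.1 ± 0.512 TPM with acetate and 50.97 ± 11.4 TPM without (SD, n = 3 each, log2 change -0.76 ± 0.19, limma adjusted p = 0.0275). Its call was lost with any 1 library left out except untreated replicate 2 (adjusted p 0.0546 to 0.134) and with the replicate block (0.0648). Without untreated replicate 1, 9 members were called, all higher.

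Ligands of the TNF superfamily, which signal cell to cell in inflammation and T cell help, rose in 7 of 12 tested members and fell in 0, with a median log2 change of 0.87. Of all tested genes 4.22% rose and 2.28% fell. Tnf, the founding member of the family, had 1553, 1584 and 1330.2 TPM with acetate, against 483, 523 and 458 TPM in untreated cells (log2 change 1.61 ± 0.24, limma adjusted p = 0.001103). Lta, of lymphotoxin alpha, had 497, 433 and 479.8 TPM with acetate and 125, 145 and 158 TPM without (log2 change 1.72 ± 0.23, limma adjusted p = 0.000419). Cd40lg, the ligand through which helper T cells license B cells and dendritic cells, had 1188, 1138 and 1247 TPM with acetate and 614, 474 and 425 TPM without (log2 change 1.25 ± 0.16, limma adjusted p = 0.000243). Every acetate library was above every untreated one in these 3 genes, a separation shared by all called genes. Fasl, the death ligand of cytotoxic cells, had 6.77, 7.03 and 7.35 TPM with acetate, against 1.42, 1.64 and 1.36 TPM without (log2 change 1.70 ± 0.19, limma adjusted p = 0.000111). Tnfsf9, the ligand of the costimulatory receptor 4-1BB, had 54.1 ± 3.298 TPM with acetate and 26.1 ± 0.682 TPM without (SD, n = 3 each, log2 change 1.02 ± 0.18, limma adjusted p = 0.00304). Cd70, the ligand of CD27, and Tnfsf14, the ligand LIGHT, rose by 1.67 and 0.71 on the log2 scale. The call of Cd70 was lost without acetate replicate 1 (adjusted p 0.0845) or acetate replicate 3 (adjusted p 0.0722) or untreated replicate 1 (adjusted p 0.105), and that of Tnfsf14 with any 1 library left out except untreated replicate 1 (adjusted p 0.101 to 0.145) and with the replicate block (0.0815). Ltb, of the membrane partner of lymphotoxin alpha, lies beside Lta and Tnf and had 125 ± 5.18 TPM with acetate and 101 ± 7.32 TPM without (log2 change 0.31 ± 0.28, limma adjusted p = 0.631).

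**Figure D3:**
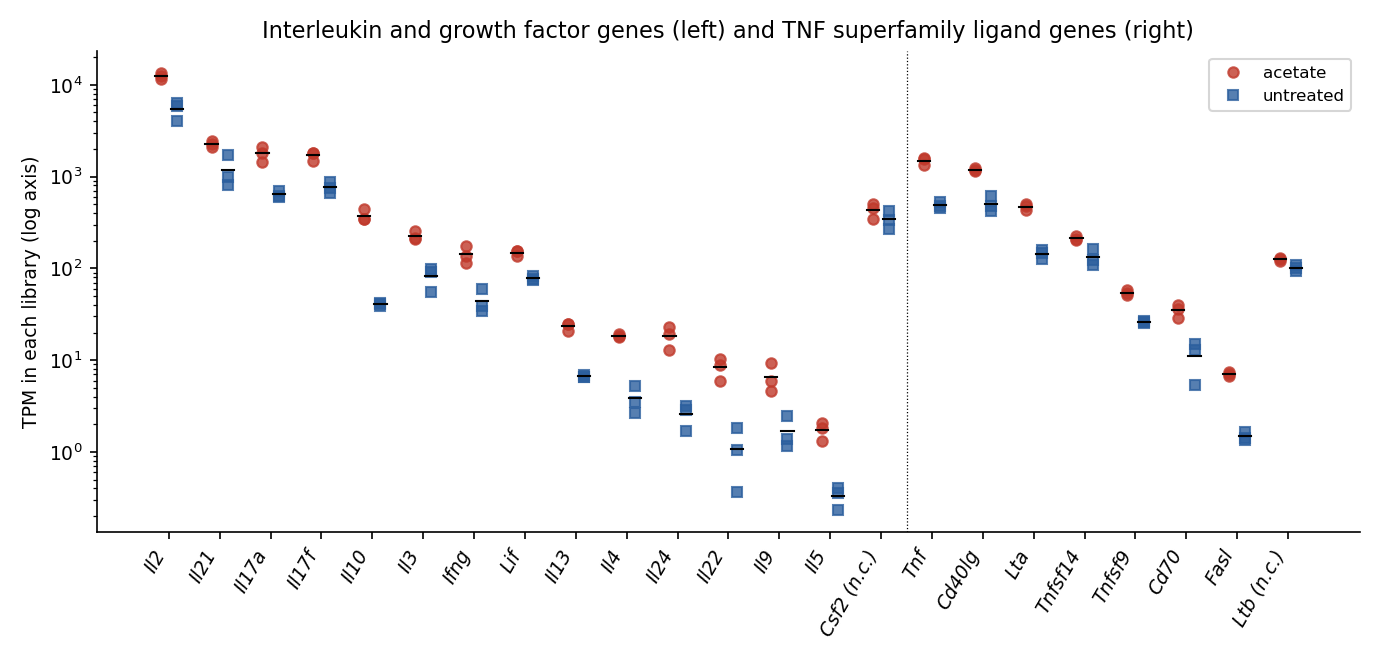
TPM in each library (vertical axis, logarithmic) of interleukin and growth factor genes left of the dotted line and TNF superfamily ligand genes right of it. Red circles are the 3 acetate libraries, blue squares the 3 untreated ones and black bars the group means, and n.c. marks the genes that were not called, Csf2 and Ltb. Il10 has the widest gap between the groups, and Il5 has the lowest level, a mean of 0.331 TPM in untreated cells.

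Part of these genes lie together on chromosome 11, in the region that holds the type 2 cytokine genes. In chromosomal order these are Il4 (53612460 to 53618665), Il13 (53631323 to 53634702) and Il5 (53720794 to 53725103), with Rad50 between Il13 and Il5, and then, across 540 kb that hold 7 protein-coding genes, Il3 (54265085 to 54267279). Il4, the defining Th2 cytokine gene, had 19.4, 18.4 and 17.7 TPM with acetate, against 2.67, 5.27 and 3.54 TPM in untreated cells (log2 change 2.05 ± 0.32, limma adjusted p = 0.001598). Il13, of its close relative, had 24.9, 24.9 and 20.9 TPM with acetate and 6.53, 6.93 and 6.603 TPM without (log2 change 1.67 ± 0.28, limma adjusted p = 0.00248). Il5, which encodes the growth factor of eosinophils, had 2.09, 1.31 and 1.83 TPM with acetate and 0.407, 0.355 and 0.232 TPM without (log2 change 1.03 ± 0.27, limma adjusted p = 0.0362). All 3 stood at low levels without acetate, and Il5 stayed low with it. The call of Il5 was lost with any 1 library left out (adjusted p 0.0648 to 0.141), while those of Il4 and Il13 held with any 1 library left out. Pdlim4, among the 12 largest rises above, is 1 of the 7 genes between Il5 and Il3. Other genes of the region were not called. Csf2, between Il5 and Il3 and 15.2 kb from Il3, had a log2 change of 0.35 (limma adjusted p = 0.559). Rad50, of a DNA repair protein, had a log2 change of -0.64 (limma adjusted p = 0.628), P4ha2, of a prolyl hydroxylase, -0.19 (0.702), and Irf1, of an interferon regulatory factor, -0.89 (0.0845, and 0.0454 with the replicate block). Il4 and Il13 have no gene between them, and 2 of the 7 genes between Il5 and Il3 did not reach the level needed for a test. Without untreated replicate 1 the changes of Rad50 and P4ha2 were -0.25 and 0.01.

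Gata3, the lineage factor of Th2 cells, had 2.96, 2.999 and 3.22 TPM with acetate and 1.896, 1.68 and 1.79 TPM without and was not called (log2 change 0.54 ± 0.22, limma adjusted p = 0.179). In the list of Th2 and Th9 genes 5 of 9 tested members rose and 0 fell, beside 4.22% and 2.28% of all tested genes. Of these 5, Il4, Il5, Il13 and Il9 are counted in the interleukin list too, and Ccr8 among the chemokine receptors. Il9, for which Th9 cells are named, had 9.305, 4.603 and 5.88 TPM with acetate and 1.37, 2.49 and 1.17 TPM without (log2 change 1.49 ± 0.25, limma adjusted p = 0.00274). Ccr8, a chemokine receptor of Th2 and regulatory cells, had 31.4, 27.2 and 36.02 TPM with acetate, against 7.57, 9.82 and 11.1 TPM without (log2 change 1.64 ± 0.31, limma adjusted p = 0.00529).

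Promoter sequences are shown for 4 genes whose neighbours moved with them, so that the start regions of the pairs can be seen beside the values: Il4 and Il13, 12.7 kb apart, Tnf, which lies 1.16 kb from Lta on chromosome 17, and Try4, which lies 5.70 kb from Try5 on chromosome 6. They are the 250 bases before the start site, 5′ to 3′ on the gene's strand, from RefSeq (GRCm38.p6). Il10, Il24 and Try5 were also looked up in that table. Capitals mark matches on either strand to 4 patterns, AP-1 (TGANTCA), CRE (TGACGTCA), the TATA box (TATAAA) and the NFAT core (GGAAA).
Il4, chr11:53618666-53618915, minus strand: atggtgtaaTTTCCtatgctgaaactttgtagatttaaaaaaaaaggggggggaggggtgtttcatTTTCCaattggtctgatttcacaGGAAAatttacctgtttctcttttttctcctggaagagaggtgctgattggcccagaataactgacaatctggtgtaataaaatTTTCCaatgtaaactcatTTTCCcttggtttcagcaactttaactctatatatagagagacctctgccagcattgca
Il13, chr11:53634703-53634952, minus strand: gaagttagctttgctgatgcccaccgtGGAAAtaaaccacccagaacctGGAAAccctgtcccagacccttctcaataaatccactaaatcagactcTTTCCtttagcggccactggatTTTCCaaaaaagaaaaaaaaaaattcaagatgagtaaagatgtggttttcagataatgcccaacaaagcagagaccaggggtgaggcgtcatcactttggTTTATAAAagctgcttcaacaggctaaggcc
Tnf, chr17:35202008-35202257, minus strand: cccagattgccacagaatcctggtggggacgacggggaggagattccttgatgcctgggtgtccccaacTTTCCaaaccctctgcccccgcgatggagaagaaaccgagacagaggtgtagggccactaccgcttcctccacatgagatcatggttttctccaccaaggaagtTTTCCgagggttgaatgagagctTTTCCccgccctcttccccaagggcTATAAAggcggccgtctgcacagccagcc
Try4, chr6:41302022-41302271, plus strand: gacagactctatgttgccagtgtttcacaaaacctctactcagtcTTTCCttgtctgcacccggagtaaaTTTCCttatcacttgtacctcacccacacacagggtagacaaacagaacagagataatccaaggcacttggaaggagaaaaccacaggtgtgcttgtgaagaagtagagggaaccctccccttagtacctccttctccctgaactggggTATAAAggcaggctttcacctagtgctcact
The NFAT core, the site of the factors that ionomycin activates through calcium, matched 5 times in Il4, 4 times in Il13, 3 times in Tnf and 2 times in Try4. It is so short that 55.6% of 27025 listed promoters of this length hold at least 1 match, and 6.50% hold at least 3. A TATA box lay 29 bases before the start of Tnf and of Il13 and 31 bases before that of Try4, in 3 of the 4 promoters, beside 12.97% of all. AP-1 and CRE matched in none of the 4, beside 6.87% and 1.62% of all.

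Other neighbouring genes that moved together were picked after their values were seen. How often neighbours move together over all genes was not tested. Csf2 beside Il3, and Ltb beside Lta and Tnf, were not called (log2 changes 0.35 and 0.31, limma adjusted p = 0.559 and 0.631). Il24 and Il10 lie 132 kb apart on chromosome 1, and of the cytokine genes between them Il20 was at 0 TPM in all 6 libraries and Il19 at 0.316, 0.211 and 0.286 TPM with acetate and 0.105, 0.0760 and 0.0595 TPM without, below the level needed for a test. Il17a and Il17f, which form a heterodimer, lie 42.6 kb apart on the same chromosome. Igtp and Irgm2 (below) lie 7.38 kb apart on chromosome 11.

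Genes that define the Th17 state rose in part. Of 24 tested lineage factors and receptors 8 rose and 0 fell, beside 4.22% and 2.28% of all tested genes. Their median log2 change was 0.49. Rora, of a nuclear receptor that favours the Th17 fate, had 13.5, 11.4 and 11.4 TPM with acetate and 6.602, 5.99 and 4.35 TPM without (log2 change 0.99 ± 0.21, limma adjusted p = 0.00943). Ahr, of the aryl hydrocarbon receptor that drives Il22, had 9.83, 10.5 and 10.04 TPM with acetate, against 3.07, 3.11 and 2.899 TPM without (log2 change 1.47 ± 0.17, limma adjusted p = 0.000114). Il1r1, the receptor of interleukin-1, had 4.87, 5.27 and 6.44 TPM with acetate and 1.71, 1.54 and 1.82 TPM without (log2 change 1.27 ± 0.15, limma adjusted p = 0.000114). Il23r, Il17re and Ccr6, receptors of interleukin-23, of interleukin-17C and of the chemokine CCL20, rose by 0.97, 0.59 and 0.90 on the log2 scale, with limma adjusted p of at most 0.00713, and the call of Il17re was lost with the GC and length correction (0.0616). Cd5l, which encodes a lipid-binding protein known from less pathogenic Th17 cells, had 55.8, 48.99 and 66.9 TPM with acetate, against 15.2, 22.4 and 24.7 TPM without (log2 change 1.44 ± 0.27, limma adjusted p = 0.00464). The call of Rora was lost without acetate replicate 1 (adjusted p 0.0506), and the other 7 of the 8 held with any 1 library left out. The activation-driven factors Batf, Irf4, Maf, Hif1a and Stat3 had log2 changes of 0.16, -0.57, -0.08, 0.30 and 0.21 and were not called, with limma adjusted p of at least 0.0793. Irf4 passed with the GC and length correction (limma adjusted p = 0.0157) and with median-ratio scaling (0.0483), and the change of Hif1a was 0.56 without untreated replicate 1.

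Of the 6 tested targets of the aryl hydrocarbon receptor, Il22 rose and 5 were not called, among them Cyp1a1, its classic target, with a log2 change of 0.89 (limma adjusted p = 0.414). Ets1 and Ahr were the 2 called members, both higher, among 13 tested regulators of Il10, beside 4.22% higher among all tested genes. Ets1 had 138, 118 and 129 TPM with acetate and 72.8, 57.98 and 54.99 TPM without (log2 change 1.05 ± 0.15, limma adjusted p = 0.000594). Maf and Prdm1, of 2 factors known to turn Il10 on in T cells, had log2 changes of -0.08 and 0.11 (limma adjusted p = 0.889 and 0.702). Of the list of regulatory T cell genes 0 of 15 tested members were called by limma, with 3 at an unadjusted p under 0.05, 2 called by voom, 1 with the replicate block, 1 with the GC and length correction and 2 with median-ratio scaling. Foxp3 had 0.672, 0.6197 and 0.836 TPM with acetate and 0.668, 0.694 and 0.869 TPM without (log2 change -0.03 ± 0.21, limma adjusted p = 0.962). Prdm1 had 0.405, 0.296 and 0.339 TPM with acetate and 0.193, 0.280 and 0.258 TPM without. At such low levels a change of Prdm1 or Foxp3 is hard to call. The part of Foxp3, Maf or Prdm1 in the rise of Il10 was not tested. Coinhibitory receptors had 0 of 16 called by limma and 8 at an unadjusted p under 0.05, with a median log2 change of 0.45. Of them 3 were called by voom, 2 with the replicate block, 4 with the GC and length correction and 4 with median-ratio scaling.

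Genes of Th1 and cytotoxic cells rose in 5 of 17 tested members and fell in 0, with a median log2 change of 0.83, and the count was 9 with the replicate block. Over all tested genes the shares were 4.22% higher and 2.28% lower. Tbx21, of the Th1 factor T-bet, had 17.8, 17.5 and 22.3 TPM with acetate, against 4.46, 3.84 and 4.597 TPM without (log2 change 1.93 ± 0.25, limma adjusted p = 0.000297). Cxcr3, the T-bet target that guides Th1 cells to inflamed tissue, had 14.2, 15.3 and 15 TPM with acetate and 1.48, 2.94 and 4.95 TPM without (log2 change 2.03 ± 0.35, limma adjusted p = 0.00265). Ifng had 176, 137 and 113 TPM with acetate, against 34.2, 59.5 and 38.9 TPM without (log2 change 1.68 ± 0.37, limma adjusted p = 0.0122). Each acetate library was above each untreated one in these 3 genes, and no called gene had overlapping groups. The call of Ifng was lost without acetate replicate 1 (adjusted p 0.0651) or untreated replicate 1 (adjusted p 0.063). Il18rap and Il18r1, the 2 chains of the interleukin-18 receptor, rose by 1.03 and 0.80, and the call of Il18r1 was lost with any 1 library left out except untreated replicate 3 (adjusted p 0.058 to 0.145). The granzyme and perforin genes Gzmb, Gzmc and Prf1 had log2 changes of 0.83, 0.94 and 0.78 and were not called (limma adjusted p = 0.344, 0.175 and 0.176), but passed with the replicate block (0.0282, 0.00674 and 0.0275). Without untreated replicate 1 the change of Gzmb was 1.28.

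Chemokine receptor genes rose in 5 of 13 tested members and fell in 0, beside 4.22% and 2.28% of all tested genes. Cxcr5, the receptor that leads T cells into B cell follicles, had 9.11, 8.88 and 10.4 TPM with acetate, against 1.8, 1.51 and 1.97 TPM without (log2 change 1.92 ± 0.19, limma adjusted p = 5.51e-05). Ccr6, Ccr8 and Cxcr3 are given above. The chemokine ligand genes went both ways, as 2 of the 12 tested rose while 2 fell, and 0 of these 4 calls held with each library left out. Ccl3 and Ccl1, attractants of inflammatory and of CCR8-bearing cells, had 804 ± 83.1 and 18.3 ± 2.503 TPM with acetate, against 465 ± 26.1 and 6.07 ± 2.26 TPM without (SD, n = 3 each). Cxcl10, a ligand of CXCR3, and Cxcl16, the ligand of CXCR6, had 0.518 ± 0.198 and 4.69 ± 0.277 TPM with acetate, against 2.33 ± 0.872 and 8.68 ± 1.69 TPM without. The call of Ccl3 was lost with any 1 library left out except acetate replicate 3 or untreated replicate 2 (adjusted p 0.056 to 0.0919), that of Ccl1 with any 1 library left out except untreated replicate 2 (adjusted p 0.062 to 0.094), that of Cxcl10 with any 1 library left out except untreated replicate 1 (adjusted p 0.0518 to 0.106), and that of Cxcl16 with any 1 library left out except untreated replicate 2 (adjusted p 0.0721 to 0.13) and with the replicate block (0.0742).

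The next lists had few calls by limma, beside 4.22% higher and 2.28% lower over all tested genes. Of 12 AP-1 and BATF factors 1 rose, Fosl2, at 32.9 ± 1.22 TPM with acetate and 15.9 ± 1.32 TPM without (SD, n = 3 each), a call lost with any 1 library left out (adjusted p 0.0555 to 0.0843). Of 16 EGR, NR4A and NFAT genes 2 rose, Rcan1, a calcineurin inhibitor that NFAT induces (log2 change 0.81 ± 0.15, limma adjusted p = 0.005101), and Nr4a3, of an orphan nuclear receptor (log2 change 0.60 ± 0.16, limma adjusted p = 0.0368), whose call was lost with any 1 library left out except untreated replicate 1 (adjusted p 0.0932 to 0.131). The NF-kappaB list had 0 of 20 called by limma, 5 at an unadjusted p under 0.05 and 0 by voom. The T cell receptor and costimulation list had 0 of 20 called by limma, 2 at an unadjusted p under 0.05 and 1 by voom. Of 14 naive and memory genes Tcf7, of the factor TCF1, rose (log2 change 0.98 ± 0.18, limma adjusted p = 0.00441) and Slfn2, of a quiescence factor, fell (log2 change -0.80 ± 0.22, limma adjusted p = 0.0379). The call of Slfn2 was lost with any 1 library left out except untreated replicate 3 (adjusted p 0.0765 to 0.179). Of 21 JAK-STAT and SOCS genes Stat5a and Socs3 rose by 0.54 and 0.68, and their calls were lost without acetate replicate 2 (adjusted p 0.0714) and with any 1 library left out except acetate replicate 3 or untreated replicate 1 (adjusted p 0.0598 to 0.0918). Of 14 genes of TGF-beta signalling 2 rose, among them Ltbp3, of a protein that binds latent TGF-beta, with 2.54, 2.45 and 2.34 TPM with acetate and 0.205, 0.347 and 0.272 TPM without (log2 change 1.43 ± 0.15, limma adjusted p = 7.52e-05).

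Genes of acetate use itself gave 1 call, beside 6.5% called over all tested genes. Acss1, of the mitochondrial acetyl-CoA synthetase, was the called member of 13 tested genes of acetate uptake and acetyl-CoA supply, with 0.865, 1.77 and 1.31 TPM with acetate and 0.556, 0.4296 and 0.633 TPM without (log2 change 0.57 ± 0.15, limma adjusted p = 0.0287). Its call was lost with any 1 library left out except acetate replicate 1 (adjusted p 0.054 to 0.156) and with the replicate block (0.05103). Acss2, of the cytosolic and nuclear form, had 3.26, 3.76 and 3.52 TPM with acetate and 3.18, 2.28 and 2.99 TPM without (log2 change 0.25 ± 0.19, limma adjusted p = 0.547). Acly had 461, 457 and 421 TPM with acetate and 400.3, 395 and 391.9 TPM without (log2 change 0.17 ± 0.22, limma adjusted p = 0.733). Slc16a1, of the monocarboxylate transporter MCT1, had 147 ± 8.81 TPM with acetate and 143 ± 13.98 TPM without (SD, n = 3 each, log2 change 0.05 ± 0.17, limma adjusted p = 0.917). The acetate receptor genes Ffar2 and Ffar3 did not reach the level needed for a test. Slc2a3, of the glucose transporter GLUT3, had 30.9, 32.6 and 29.6 TPM with acetate and 14.4, 19.8 and 18.99 TPM without (log2 change 0.79 ± 0.28, limma adjusted p = 0.119), and passed with the replicate block (0.0303). Slc2a1, of GLUT1, had 80.9 ± 1.92 TPM with acetate and 80.2 ± 3.51 TPM without (log2 change 0.01 ± 0.27, limma adjusted p = 0.9901).

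Lipid genes moved singly. Plin2, of the coat protein of lipid droplets, had 39.5, 42.7 and 42.1 TPM with acetate, against 15.1, 18.1 and 23.04 TPM without (log2 change 1.12 ± 0.21, limma adjusted p = 0.00456). Abca1, which exports cholesterol and is a target of the sterol sensor LXR, fell to 7.46, 10.8 and 9.12 TPM with acetate, against 19.2, 16.2 and 16.9 TPM without (log2 change -0.88 ± 0.15, limma adjusted p = 0.00247). Both calls held with any 1 library left out. Cpt1a, the gate of fatty acid oxidation, Elovl6, a fatty acid elongase, and Smpdl3a, another LXR target, rose by 0.95, 0.50 and 1.01, and Insig1, which holds back sterol synthesis, had a log2 change of -0.89. The call of Cpt1a was lost with any 1 library left out (adjusted p 0.0761 to 0.15), that of Elovl6 with any 1 library left out (adjusted p 0.0653 to 0.189) and with the replicate block (0.0671), that of Smpdl3a with any 1 library left out except untreated replicate 3 (adjusted p 0.0521 to 0.148), and that of Insig1 with any 1 library left out except untreated replicate 2 (adjusted p 0.0574 to 0.0772). By list, 1 of 13 fatty acid synthesis genes rose and 0 fell, 0 of 23 cholesterol genes rose and 1 fell, 1 of 7 LXR targets rose and 1 fell, and 2 of 18 lipid droplet and oxidation genes rose and 0 fell. Over all tested genes 4.22% were called higher and 2.28% lower. Of 25 genes of the TCA cycle 1 rose, Suclg1, a subunit of succinyl-CoA synthetase, at 164 ± 10.1 TPM with acetate and 108 ± 8.65 TPM without (SD, n = 3 each, log2 change 0.61 ± 0.11, limma adjusted p = 0.004404). Glycolysis had 0 of 22 called by limma and 5 at an unadjusted p under 0.05. It had 4 called by voom, 2 with the replicate block, 3 with the GC and length correction and 2 with median-ratio scaling. The pentose phosphate pathway and the nuclear-encoded respiratory chain had 0 of 9 and 0 of 41 called by limma, 1 each at an unadjusted p under 0.05 and 0 by voom.

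Sirt1, of an NAD-dependent deacetylase of histones and transcription factors, was the called member among 15 histone deacetylases and sirtuins, beside 6.5% called over all tested genes. It had 17.6, 17.4 and 19.2 TPM with acetate, against 33.9, 34.4 and 31.9 TPM in untreated cells (log2 change -0.85 ± 0.13, limma adjusted p = 0.000847), and the call held with any 1 library left out. The enzymes that acetylate histones had 0 of 14 members called by limma, 2 at an unadjusted p under 0.05 and 1 by voom, with a median log2 change of -0.39. The acetyl-lysine readers had 0 of 12 called by limma, 4 at an unadjusted p under 0.05, 0 by voom, and 1, lower, with the replicate block. Their median was -0.47 with all libraries and -0.18 without untreated replicate 1. The G2 and M phase list behaved alike in this respect, with 0 of 25 called by limma, 1 at an unadjusted p under 0.05 and 0 by voom, and a median of -0.58 with all libraries and -0.24 without that library.

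In the unfolded protein response 0 of 22 tested members rose and 3 fell, beside 4.22% and 2.28% of all tested genes. The median log2 change was -0.38. Sel1l, of the adaptor of the degradation complex of the endoplasmic reticulum, had 68.6, 65.6 and 62.1 TPM with acetate and 171, 100.3 and 106 TPM without (log2 change -0.89 ± 0.17, limma adjusted p = 0.00587). The untreated group was again highest in replicate 1. Creld2 and Dnajb9, of 2 folding helpers, had log2 changes of -0.64 and -0.74. The call of Creld2 was lost without acetate replicate 2 (adjusted p 0.0667) or untreated replicate 1 (adjusted p 0.0561) or untreated replicate 3 (adjusted p 0.0509), that of Dnajb9 without acetate replicate 2 (adjusted p 0.062) or acetate replicate 3 (adjusted p 0.0602) or untreated replicate 1 (adjusted p 0.0582), and the median was -0.21 without untreated replicate 1. Vldlr in the ATF4 list, Car2, a carbonic anhydrase, in the acid list, Kdm3a in the HIF list and Gclc, of glutathione synthesis, in the NRF2 list were the single called members of these 4 lists, with log2 changes of -0.58, -0.77, -0.67 and -0.88. Their calls were lost, for Vldlr with any 1 library left out except untreated replicate 2 (adjusted p 0.0529 to 0.14) and with the replicate block (0.0556), for Car2 with any 1 library left out except untreated replicate 3 (adjusted p 0.0723 to 0.132), for Kdm3a with any 1 library left out except untreated replicate 2 or untreated replicate 3 (adjusted p 0.083 to 0.139) and with the replicate block (0.0694), and for Gclc with any 1 library left out (adjusted p 0.0507 to 0.197) and with the replicate block (0.0512). The heat shock and the osmotic and salt lists had 0 of 13 and 0 of 12 called by limma, 1 each at an unadjusted p under 0.05 and 0 by voom.

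Genes that interferon-gamma induces, and MHC class II genes, rose in part. Of 15 tested guanylate-binding proteins and interferon-gamma targets 4 rose and 0 fell, beside 4.22% and 2.28% of all tested genes. Their median log2 change was 0.58. Irf1, also in this list, went the other way, with a log2 change of -0.89. It was not called (limma adjusted p = 0.0845) but passed with the replicate block (0.0454). Igtp and Irgm2, immunity-related GTPases of adjacent genes, had 54.5 ± 2.32 and 10.7 ± 0.716 TPM with acetate, against 26.8 ± 2.28 and 4.797 ± 0.288 TPM without (SD, n = 3 each). Irgm1, of another such GTPase, and Irf8, an interferon regulatory factor, rose by 0.90 and 0.94. The call of Irgm1 held with any 1 library left out, while that of Igtp was lost with any 1 library left out (adjusted p 0.0572 to 0.0969), that of Irgm2 without acetate replicate 1 (adjusted p 0.0591), and that of Irf8 without acetate replicate 1 (adjusted p 0.063) or untreated replicate 2 (adjusted p 0.0606). In the type I interferon list 1 of 20 rose, Zbp1, a sensor of nucleic acids, with 9.39, 9.31 and 9.83 TPM with acetate and 4.89, 3.8 and 4.59 TPM without (log2 change 0.96 ± 0.16, limma adjusted p = 0.00212). Of 7 MHC class II genes 4 rose. H2-Oa, of the chain that tempers peptide loading, had 34.1, 34.8 and 32.1 TPM with acetate, against 7.51, 10.6 and 7.59 TPM without (log2 change 1.87 ± 0.50, limma adjusted p = 0.0353). H2-DMa and H2-DMb1, the 2 chains of the peptide loader, rose by 0.79 and 1.16, and H2-Eb1, a presenting chain, by 1.49. H2-Oa, H2-DMa and H2-DMb1 are neighbours on chromosome 17, with gaps of 24.5 kb and 14.1 kb. H2-DMb2, in the second gap, had only 0.625, 0.464 and 0.869 TPM with acetate and 0.138, 0.201 and 0.118 TPM without. It was tested only because the ACLYKO acetate libraries passed 1 TPM (1.94, 1.96 and 2.05 TPM). Its log2 change was 0.51 (limma adjusted p = 0.0262). That call was lost with any 1 library left out except acetate replicate 2 (adjusted p 0.0569 to 0.132) and with the replicate block (0.0635). The call of H2-Oa was lost with any 1 library left out (adjusted p 0.0651 to 0.121), and that of H2-Eb1 with any 1 library left out except untreated replicate 2 or untreated replicate 3 (adjusted p 0.0593 to 0.127).

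Survival and proliferation lists showed the following, beside 4.22% higher and 2.28% lower over all tested genes. Of 15 BCL-2 family genes 3 rose and 0 fell, and all 3, Bik, Bid and Bmf, encode BH3 proteins that favour death. Bik and Bid had 3.79 ± 0.4097 and 37.7 ± 3.11 TPM with acetate, against 1.18 ± 0.4399 and 21.98 ± 3.902 TPM without (SD, n = 3 each), and Bmf rose by 0.96 on the log2 scale. Their calls were lost, for Bik without acetate replicate 2 (adjusted p 0.0524) or acetate replicate 3 (adjusted p 0.0514) or untreated replicate 1 (adjusted p 0.0647), for Bid with any 1 library left out except acetate replicate 1 or untreated replicate 3 (adjusted p 0.0593 to 0.107), and for Bmf with any 1 library left out (adjusted p 0.0969 to 0.156) and with the replicate block (0.0795). The S phase, MYC and ribosome biogenesis, and p53 lists had 0 of 25, 0 of 25 and 0 of 15 called by limma, 1 each at an unadjusted p under 0.05, and 0, 1 and 0 called by voom.

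**Figure D4:**
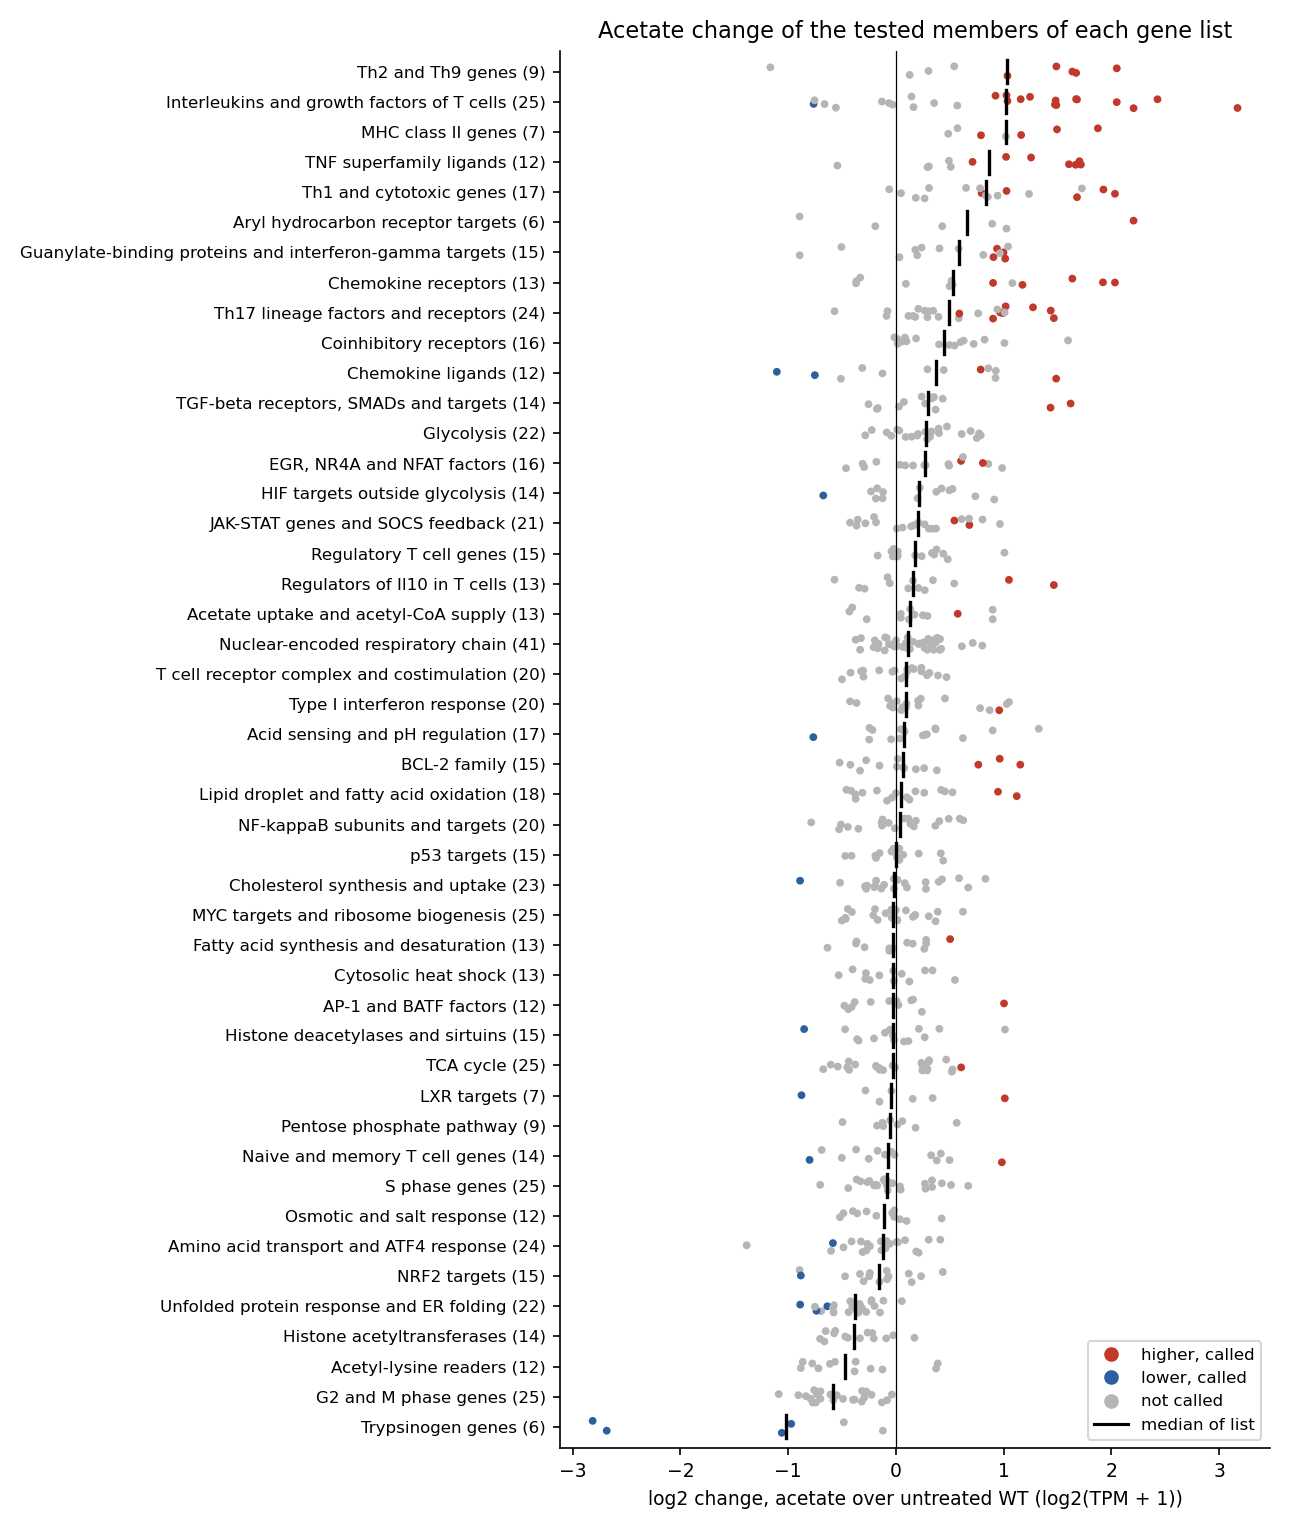
Log2 change with acetate (horizontal axis, acetate over untreated, on log2(TPM + 1)) of each tested member of 46 gene lists, ordered by the list median (black bar), with the number tested in brackets. Called members are red where higher and blue where lower, and grey points are not called. Some lists share members, as the cytokine and Th2 lists do. The cytokine, TNF ligand, MHC class II and Th2 lists sit to the right, with medians of 0.87 to 1.03, the trypsinogen list to the left with -1.02, and most metabolic lists around 0.

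Markers of other cell types were low in both groups, and in bulk RNA fewer cells of a type and less RNA per cell cannot be told apart. The sums take in every listed gene found in the data, tested or not. Summed B cell markers came to 4.69 to 5.25 TPM with acetate and 2.64 to 3.57 TPM without (2 of 8 tested), while Ms4a1 had at most 0.0316 TPM. CD8 T cell markers summed to 14.7 to 16.4 TPM with acetate and 11.6 to 13.01 TPM without (2 of 2 tested), NK and gamma-delta T cell markers to 5.11 to 6.94 and 3.37 to 4.403 TPM (3 of 9), and macrophage and dendritic cell markers to 3.96 to 4.13 and 1.91 to 3.41 TPM (2 of 13, with C1qa and C1qb at 0). Each of these 4 sums was higher with acetate in every library, without a called member in limma. Of their 9 tested members 2 had an unadjusted p under 0.05 and 0 were called by voom, while 1 of the NK and gamma-delta markers was called higher with the replicate block, and 1 of the B cell markers with the GC and length correction and with median-ratio scaling. Their part in the rises of MHC class II and Th1 genes was not tested. Neutrophil and mast cell markers and erythroid markers summed to at most 0.776 and 0.337 TPM in any library.

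The response was set beside that of the knockouts, whose own acetate and untreated libraries were used. Acetate called 691 genes higher and 1122 lower in GLUT3KO, 4.86% and 7.89% of those tested, and 1661 higher and 797 lower in ACLYKO, 11.7% and 5.60%. Of the 601 genes higher in WT, 298 were also higher in GLUT3KO (49.6% of the WT genes and 43.1% of the GLUT3KO genes) and 464 in ACLYKO (77.2% and 27.9%). Of the 324 lower in WT, 225 were also lower in GLUT3KO (69.4% and 20.1%) and 185 in ACLYKO (57.1% and 23.2%). In all 3 genotypes 233 genes were called higher and 137 lower. The change itself differed between WT and GLUT3KO for 110 genes (0.773% of those tested, 0.548% with a more positive change in WT and 0.225% with a more negative one) and between WT and ACLYKO for 191 (1.34%, 0.562% more positive and 0.78% more negative), and with the replicate block for 32 and 100 genes.

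Il10 was among the genes whose response differed. Its log2 change was 3.17 ± 0.25 in WT, 3.43 ± 0.25 in GLUT3KO and 0.82 ± 0.25 in ACLYKO, where it averaged 259 TPM with acetate and 145 TPM without, and the WT change exceeded that in ACLYKO (difference 2.35 ± 0.36, limma adjusted p = 0.00441). Il9 rose by 1.49 ± 0.25 in WT and had a change of -1.03 ± 0.25 in ACLYKO (difference 2.52 ± 0.36, limma adjusted p = 0.00271), where its untreated mean was 132 TPM, against 1.68 TPM in untreated WT. Zbp1 went up in WT (0.96 ± 0.16) and had changes of -0.71 ± 0.16 in GLUT3KO and -0.97 ± 0.16 in ACLYKO, with untreated means of 31.8 and 32.8 TPM against 4.43 TPM in WT. Both differences passed (1.66 ± 0.22, limma adjusted p = 0.00265 for GLUT3KO, and 1.93 ± 0.22, limma adjusted p = 0.000603 for ACLYKO). Untreated Zbp1 was thus lower in WT than in either knockout. Angptl2, of a secreted angiopoietin-like protein, had a change of 1.71 ± 0.27 in WT and -1.38 ± 0.27 in GLUT3KO (difference 3.10 ± 0.38, limma adjusted p = 0.00183). Its untreated means were 6.16 TPM in WT and 81.8 TPM in GLUT3KO, and its acetate means 22.3 and 30.7 TPM. Phf11b, of a PHD finger protein, had a change of 0.88 ± 0.11 in WT and -0.29 ± 0.11 in GLUT3KO (difference 1.16 ± 0.16, limma adjusted p = 0.00256). Its untreated means were 25.5 TPM in WT and 124 TPM in GLUT3KO. The costimulatory receptor gene Cd226 was not called in WT (-0.32 ± 0.17) and had a change of -2.38 ± 0.17 in GLUT3KO (difference 2.06 ± 0.24, limma adjusted p = 0.00143). Ccr6 and Plin2 changed more in ACLYKO than in WT (differences -1.58 ± 0.25, limma adjusted p = 0.00711, and -1.82 ± 0.29, limma adjusted p = 0.00746), while Nr4a3, with a change of -0.73 ± 0.16 in ACLYKO, had a higher log2 change in WT (difference 1.34 ± 0.23, limma adjusted p = 0.00935). Untreated Ccr6, Plin2 and Nr4a3 averaged 47.9, 18.8 and 9.65 TPM in WT and 21.3, 1.48 and 19.1 TPM in ACLYKO. The 10 differences in log2 change given here held with each of the 12 libraries involved left out in turn.

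**Figure D5:**
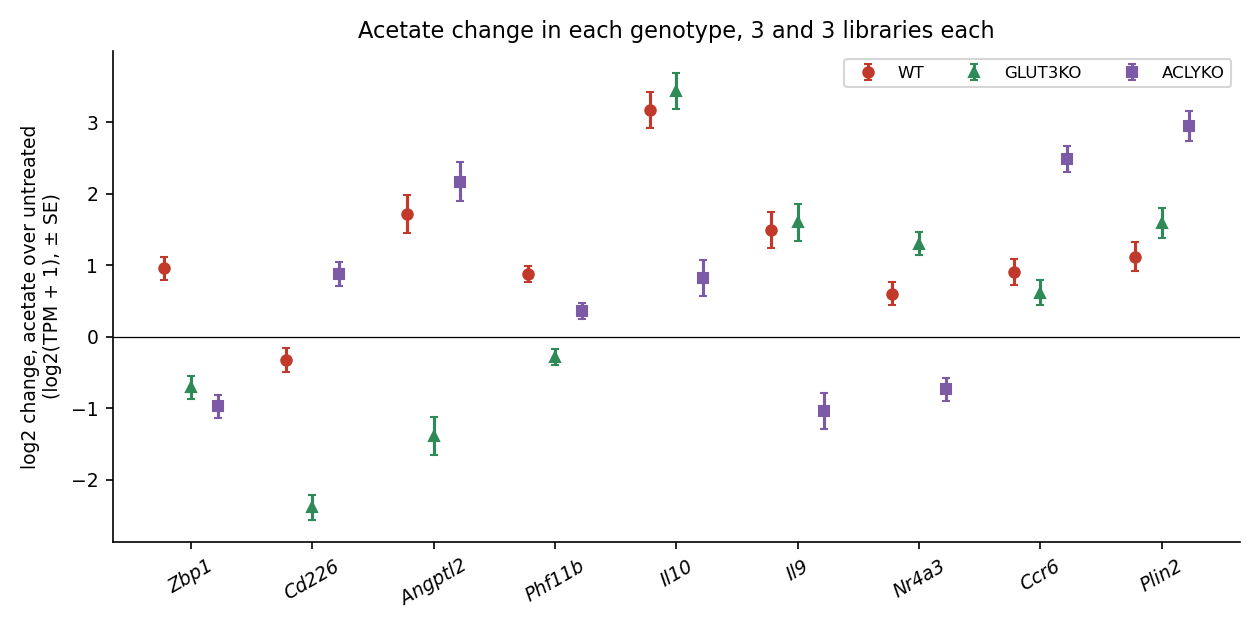
Log2 change with acetate (vertical axis, acetate over untreated within each genotype, on log2(TPM + 1), ± standard error of the fit) of 9 genes whose response in WT differed from that in GLUT3KO or ACLYKO. Red circles are WT, green triangles GLUT3KO and purple squares ACLYKO, each from 3 acetate and 3 untreated libraries. Zbp1 lies above 0 in WT alone, and Il10 lies near 3 in WT and GLUT3KO and below 1 in ACLYKO.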

How the data were processed

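Messenger RNA of 18 Th17 libraries was sequenced, and the report rests on the 6 WT libraries, grouped by the labels. The deposited table holds TPM per gene with the exon length in bases. The submitters' processing notes name the build GRCm38.p6, the aligner STAR 2.7.2b, the counter featureCounts 1.6.4, and bcl2fastq 2.20.0.422, DESeq2 and cutadapt, without saying which made which value. TPM multiplied by exon length, and divided by the value of 1 read in that library, gave whole reads for 100% of values within 0.01, and 1 read of a gene of 2000 bases is worth 0.0342 to 0.0625 TPM in the WT libraries.

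Genes with TPM of at least 1 in at least 3 of 18 libraries were kept. log2(TPM + 1) of all 18 was fitted with group means in limma 3.58.1 (R 4.3.3, trended and robust variances), and p-values were adjusted by Benjamini-Hochberg over all tested genes. The difference between genotypes was tested as a contrast in the same fit. The code was tested on simulated data. Figures used matplotlib 3.10.9 in Python 3.11.15. Gene lists, members and tests were chosen with earlier results of these data known. Named genes were the 12 largest rises and falls, up to 6 members per list by adjusted p, a fixed set of cytokine and metabolic genes, the 8 leading genes of each genotype contrast and the 8 most abundant genes. The rises and falls were taken from called genes whose groups did not overlap, with a mean of at least 5 TPM in one group. Other names, such as further called members of a list, Gata3, the granzyme genes and the chromosomal neighbours, were chosen after their values were seen.

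Deviations of same-numbered WT libraries correlated weakly (0.128, 0.12 and 0.13), beside -0.234 to 0.103 for libraries of different number. These values do not settle whether the libraries are paired, so a fit with the replicate number as a block was used as an alternative. Others changed the pseudocount, filter, scaling, samples in the fit and weights, used voom on the recovered reads, or left out each library. A GC and length correction and a fit without the 4 libraries that stood apart were added after seeing the data. A few items that are counted in the lists are not reported here by name.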

Additional observations from a re-analysis of the deposited data

Results flagged for a closer look

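The acetate response differed between WT and a knockout for 21 gene and genotype pairs named in the report or chosen by the contrast, by limma's contrast with Benjamini-Hochberg adjusted p under 0.05. Each value is the log2 change in WT minus that in the knockout.

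Against GLUT3KO, the difference was 3.10 for Angptl2, 2.06 for Cd226, 1.66 for Zbp1 and 1.16 for Phf11b, and these 4 held with each of the 12 libraries involved left out. It was 1.52 for Try4, 1.12 for Ahr, 1.09 for Il23r, 0.99 for Abca1 and 0.72 for Il17re, and -1.73 for Il17f and -2.87 for Il23a, and each of these 7 was lost without at least 5 of the 12 libraries taken singly. The replicate block ended the calls of 6 of these 7, all but Il23a, with limma adjusted p of 0.0664 to 0.166.

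Against ACLYKO, the difference was 2.52 for Il9, 2.35 for Il10, 1.93 for Zbp1 and 1.34 for Nr4a3, and -1.58 for Ccr6 and -1.82 for Plin2, and these 6 held with each of the 12 left out. It was 0.84 for Stat5a, -1.03 for Elovl6, -1.20 for Cd226 and -1.34 for Cxcr5, which were lost without some of them. The replicate block ended the calls of Stat5a (limma adjusted p 0.0775), Elovl6 (0.054) and Cd226 (0.085). Causes were not tested.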

How the results depend on the processing

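The count of genes called with acetate in WT, 925 (601 higher, 324 lower), varied between fits. It was 1462 (945 and 517) in a fit of the 6 WT libraries alone, 5642 (2929 and 2713) with array weights, and 2824 (1581 and 1243) without the 4 libraries that stood apart, all numbered replicate 1, an alternative added after seeing the data. The GC and length correction, also added then, gave 1592 genes with 711 lower, and higher genes were 55.3% of calls, against 65.0% as reported. The replicate block, over genotype and number, gave 213 lower genes, and by number in the 6 WT libraries 426 (350 and 76). A minimum of 5 TPM left 624 (348 and 276), quantile normalization gave 1209 (699 and 510), and a log2 change of at least 1 left 273 (231 and 42). Leaving out 1 library gave 451 to 641 genes, 349 to 433 higher and 102 to 215 lower; higher genes were 77.8% of calls without untreated replicate 1. The 110 genes whose change differed from GLUT3KO became 21 with a pseudocount of 0.1, 171 with no filter, 55 at 5 TPM, 66 with quantile normalization, 32 with the replicate block, 6732 with array weights, 36 with voom, 782 without the 4 libraries, 69 at a log2 difference of at least 1, and 40 to 103 with 1 library left out. The 191 that differed from ACLYKO became 94 at 5 TPM, 100 with the block, 4007 with array weights, 306 with the GC and length correction, 591 without the 4 libraries, and 93 to 386 with 1 left out. The causes were not tested. Of the genes named, the GC and length correction ended the calls of Tnfsf14 (adjusted p in limma 0.151), H2-DMb2 (0.149), Stat5a (0.111), Irf8 (0.0998), Socs3 (0.0886), Il17re (0.0616) and Acss1 (0.0588), and median-ratio scaling those of Gclc (0.0787), Cxcl16 (0.0564), Il2 (0.0546) and Il18r1 (0.0504). Among genes named in the report, changes near 0 and not called turned sign. Slc16a1 was -0.0174 with array weights, -0.0354 without the 4 libraries, and -0.0354 to 0.102 with 1 library left out. Slc2a1 was -0.0571 with the GC and length correction and -0.0125 to 0.0473 with 1 left out, and Foxp3 was -0.0816 to 0.0219. Maf was 0.0272 without the 4 libraries and -0.171 to 0.0272 with 1 left out, Prdm1 -0.0595 with quantile normalization, and Batf -0.0596 with the GC and length correction. P4ha2 was 0.0543 with array weights, 0.0118 without the 4 libraries and -0.334 to 0.0118 with 1 left out. With 3 libraries a group, small changes of low genes are the least certain.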
